A study of Mus musculus with 2 samples.

Results

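Genes described as markers of hepatocellular carcinoma, with the genes of the largest excess in the tumour model, were examined in 2 livers of C57BL/6 mice aged 10 months. The set holds 10 genes of the 35272 with an entry: Afp, Gpc3, Golm1, Tff3, Ly6d, Ubd, Bex1, Bex2, Cd63 and Mdk. They were picked by name, partly because their values were already known to be high in the library labelled LTsc1KO, so every comparison of them between the libraries is a description and no test was made. RNA sequencing covered 1 library labelled wild type and 1 labelled LTsc1KO, whose genotype label reads TSC1-/- and which the study describes as lacking Tsc1 in liver only. The Cre driver was not stated in the sources used here. Tsc1 encodes a brake on mTORC1, and mice without it in liver develop hepatocellular carcinoma that the study calls noninflammatory. Its text refers to tumours, whereas the tissue label of each sample reads liver, so it is not known here whether a nodule was taken. Not all of the 10 are secreted or on the surface: Ubd, Bex1 and Bex2 encode proteins of the cell interior.

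The deposited values are FPKM, reads scaled by transcript length and library size, and can be compared between genes of different length. Recovered totals were 27919645 reads for wild type and 29351163 for LTsc1KO. With 1 library per genotype no difference has a replicate check, no p-value is given, and genotype cannot be told apart from the individual mouse. Intervals are exact, at 95%, are computed on reads and reflect counting error alone. Tsc1 itself had an FPKM of 4.90 in the wild type library and 4.79 in the LTsc1KO library (ratio 0.976, interval 0.868 to 1.10), so a value summed over the whole gene does not check the labels. Both libraries are therefore named by their label throughout. The log2 ratio is that of FPKM + 1, LTsc1KO over wild type, which understates the difference of low genes, and folds are ratios of FPKM. In a bulk sample, more cells of a type and more RNA per cell cannot be told apart.

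As background, alpha-fetoprotein (Afp) is the classical serum marker of liver cancer: its gene is active in the yolk sac and fetal liver and is shut down after birth by repressors that include Zhx2 and Zbtb20. Glypican 3 (Gpc3) is a heparan sulfate proteoglycan anchored to the cell surface, also fetal, and is used in the histological diagnosis of human hepatocellular carcinoma. Golm1 encodes GP73, a Golgi membrane protein that furin cleaves and that then appears in serum. Midkine (Mdk) is a heparin-binding growth factor of development and tumours. Tff3 is a trefoil peptide secreted mainly by intestinal goblet cells. Ly6d is a small GPI-anchored surface protein, best known as a marker of early B lymphocyte development. Cd63 is a tetraspanin of late endosomes, lysosomes and exosomes that also reaches the plasma membrane. Ubd, or FAT10, is a ubiquitin-like modifier that marks proteins for the proteasome and is induced by interferon-gamma and TNF. Bex1 and Bex2 are small X-linked adaptor proteins known mainly from the nervous system.

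RefSeq promoter windows on GRCm38.p6 were at hand for 7 of the 10 genes. Shown here are 120 bases before and 10 bases from the start for Afp, whose level barely differed, for Bex2, Ubd and Gpc3, which were nearly absent in the wild type library, and for Bex1 with its X-linked relative Bex4, because those sequences are nearly alike. Capitals mark matches to the motifs named after the sequences.
Afp (chr5:90490594-90490723, plus strand): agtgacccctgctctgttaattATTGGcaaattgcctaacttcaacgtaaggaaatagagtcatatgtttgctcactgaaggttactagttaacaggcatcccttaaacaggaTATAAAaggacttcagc
Gpc3 (chrX:52613965-52614094, minus strand): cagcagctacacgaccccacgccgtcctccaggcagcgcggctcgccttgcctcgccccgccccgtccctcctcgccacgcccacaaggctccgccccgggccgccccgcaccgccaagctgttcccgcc
Ubd (chr17:37193772-37193901, plus strand): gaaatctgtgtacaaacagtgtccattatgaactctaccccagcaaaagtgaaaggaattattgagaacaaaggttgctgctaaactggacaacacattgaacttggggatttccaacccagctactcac
Bex2 (chrX:136068227-136068356, minus strand): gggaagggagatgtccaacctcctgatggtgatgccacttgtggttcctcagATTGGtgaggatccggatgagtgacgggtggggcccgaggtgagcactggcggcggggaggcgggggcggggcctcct
Bex1 (chrX:136215504-136215633, minus strand): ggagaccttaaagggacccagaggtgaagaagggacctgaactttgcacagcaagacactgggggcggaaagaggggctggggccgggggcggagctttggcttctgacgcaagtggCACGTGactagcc
Bex4 (chrX:136138876-136139005, plus strand): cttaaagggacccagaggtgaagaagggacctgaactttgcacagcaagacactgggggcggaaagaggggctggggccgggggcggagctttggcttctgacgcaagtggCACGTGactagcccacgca

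Searched on both strands of the whole 300-base windows (250 bases before and 50 from the start), 9 motifs were looked for. They were TATAAA (the TATA box), CCAAT (the CCAAT box), TGACNNNGC (NRF2), TGATGNAA (ATF4 with C/EBP), CACGTG (the E-box of MiT/TFE and MYC factors), GAAA repeated after any 2 bases (interferon response), TGANTCA (AP-1), TTCNNNGAA (STAT) and GGGA followed after any base by TTTCC (NF-kB). Positions count from the RefSeq start of the window, which can differ from the GENCODE gene start given below. For Afp the printed bases end at 90490723, before the GENCODE start at 90490737. With the RefSeq start base counted as 0, the Afp window held CCAAT on the opposite strand at -98 to -94 and TATAAA, which 13.6% of 32851 promoter windows hold, at -7 to -2. TATAAA also stood on the opposite strand at -185 to -180 in Golm1 and at -213 to -208 in Bex2. CACGTG occurred in 7.15% of all windows and sat at -3 to 2 in Bex1 and at -9 to -4 in Bex4. Bex3 and Tceal8, their neighbours on the X chromosome, held it at 27 to 32 and at 17 to 22, whereas the Bex2 and Tceal9 windows did not hold it. CCAAT was found in the Afp, Golm1, Ubd, Gpc3 and Bex2 windows against 37.4% of all windows. CG occurred 10.0 times per 100 bases in the Gpc3 and Golm1 windows, 4.0 in Bex2, 2.67 in Bex1, 2.0 in Cd63, 1.0 in Afp and 0 in Ubd, against a median of 2.33 over all windows. Only the patterns as written were searched, so near forms of a motif were not marked. The printed Ubd sequence holds ggggatttcc, which differs in a single letter from the NF-kB pattern. A match is a description of the letters only.

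A log2 ratio of 1 or more, called 2-fold higher here, was found for 9 of the 10 and a ratio of -1 or less for none of them; Afp was the exception. Expressed genes, those that reached an FPKM of 1 in either library, numbered 12395, of which 4411 (35.6%) passed the same limit upwards and 762 (6.15%) passed a log2 ratio of -1 downwards, a split of 85.3% higher that became 55.1% with the LTsc1KO values rescaled so that genes that reached an FPKM of 1 in both libraries had a median ratio of 1 (the median-centred scale) and 46.2% after upper quartile scaling. On the median-centred scale 1848 of 11851 expressed genes were higher and 1504 lower. The shares of all genes on each scale are the background for every list count below. Listed genes, too, can pass the filter through a single library. All 10 genes passed the filter of an FPKM of 1, but Gpc3, Golm1, Ubd, Bex2 and Mdk passed it through the LTsc1KO library alone. The median log2 ratio was 5.14 for the 10 genes and 0.70 for all 12395. Together the 10 took 795 reads, 0.00285% of the wild type library (interval 0.00265 to 0.00305), and 59286 reads, 0.202% of the LTsc1KO library (interval 0.200 to 0.204).

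Levels in the wild type library fell into tiers whose members overlapped in their counting intervals. Ly6d (FPKM 12.4) and Cd63 (11.7) stood on top, followed by Tff3 (2.25), Afp (1.80) and Bex1 (1.27). Below them came Golm1 (0.405), Ubd (0.346), Mdk (0.303) and Gpc3 (0.297), and last Bex2 (0.0397), which rests on 1 read and whose interval reaches into the tier above. In the LTsc1KO library the order was Tff3 (880), Ly6d (718), Cd63 (450), Ubd (235), Bex2 (193), Golm1 (48.2), Gpc3 (25.5), Mdk (11.3), Bex1 (5.90) and Afp (2.53), and no neighbours in it overlapped. Afp was thus the lowest of the 10 there, and Ubd and Bex2, from the bottom tiers of the wild type library, stood in the middle. By level among all genes, Tff3 went from rank 8827 to rank 86, Ly6d from 4286 to 112, Cd63 from 4421 to 210 and Bex2 from 16835 to 582, while Afp stood at 9352 and 10192.

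**Figure D1:**
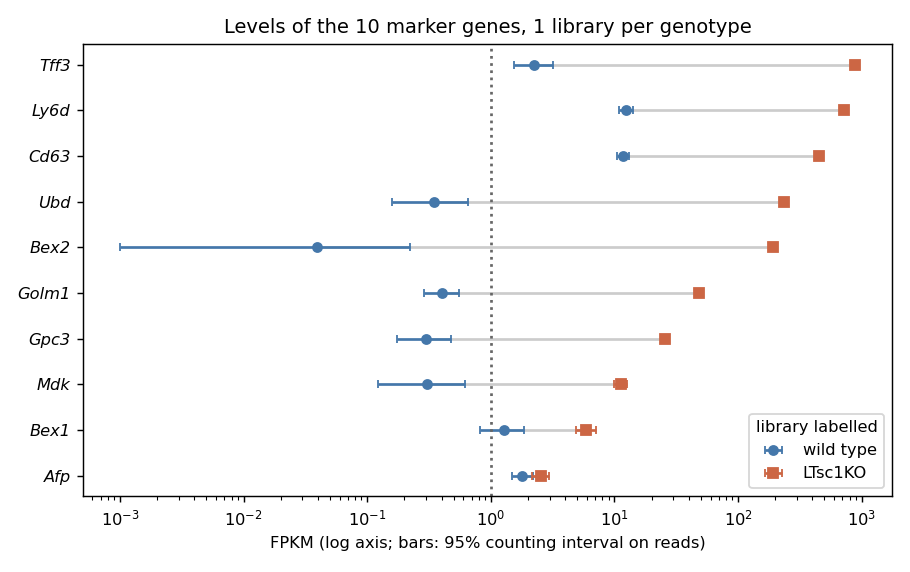
FPKM of the 10 marker genes on a log axis, 1 point per library (circles: labelled wild type; squares: labelled LTsc1KO), with 95% counting intervals on reads as bars and a dotted line at an FPKM of 1. Tff3, Ly6d and Cd63 reach 880, 718 and 450 in the LTsc1KO library, while Afp lies at 1.80 and 2.53.

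Ranked by log2 ratio among the 12395 genes, Tff3 was 1st (8.08), Bex2 2nd (7.54), Ubd 3rd (7.45), Ly6d 13th (5.74), Cd63 35th (5.15), Golm1 38th (5.13), Gpc3 97th (4.35) and Mdk 299th (3.24). Bex1 came 1890th (1.60) and Afp 8284th (0.33), with 4111 genes below it. With 2 libraries the only pattern a gene has is this ratio, so likeness means closeness in rank: Nupr1 followed Ubd, Bex4 stood directly above Cd63, Cbr3 directly below Gpc3 and Notch1 directly above Mdk.

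**Figure D2:**
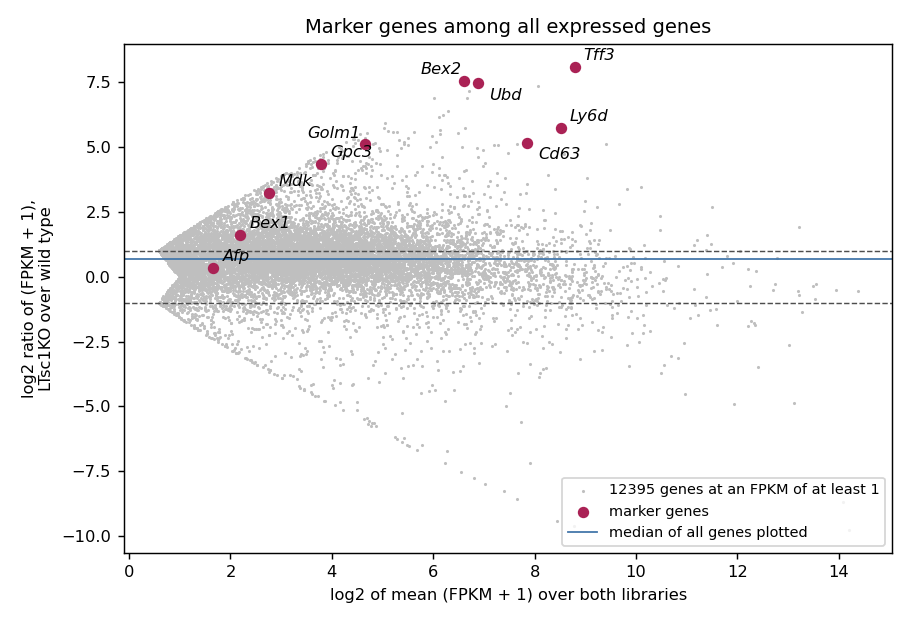
Log2 ratio of FPKM + 1 (LTsc1KO over wild type) against the log2 mean level of each of 12395 expressed genes, with the 10 marker genes in red, dashed lines at the 2-fold limits and a blue line at the median of 0.70. Tff3, Bex2 and Ubd are the 3 uppermost genes, and Afp lies below the median line.

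Among the secreted proteins, Tff3 (ENSMUSG00000024029; chromosome 17, 31125306 to 31129646, minus strand, GRCm38 in GENCODE M21) had the highest log2 ratio of FPKM + 1 of any expressed gene. With a pseudocount of 0.1 its log2 ratio of 8.55 lay below those of Bex2 (10.43) and Ubd (9.04). Its 31 reads in the wild type library and 12730 in the LTsc1KO library gave FPKM of 2.25 (interval 1.53 to 3.20) and 880 (865 to 895), which is 391-fold higher (275 to 575). The other trefoil genes were low in both libraries. Tff2, a gastric trefoil peptide whose start lies 14.6 kb from that of Tff3, had 1 and 30 reads (FPKM 0.0613 and 1.75, log2 ratio 1.37, or 0.96 on the median-centred scale). Tff1, the other gastric form, was at 0.450 and 0.356. Abcg1, the sterol exporter on the other side, was at 0.320 and 3.03 (log2 ratio 1.61). Of 8 goblet and mucous cell markers, which include Tff1 and Tff2, only Tff2 reached an FPKM of 1 in either library. Their summed FPKM was 0.714 and 2.99, and the mucin gene Muc2 and the goblet cell disulfide isomerase Agr2 were listed at 0 in both libraries.

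Afp (ENSMUSG00000054932; chromosome 5, 90490737 to 90508907, plus strand) had an FPKM of 1.80 (interval 1.47 to 2.18; 105 reads) in the wild type library and 2.53 (2.15 to 2.96; 155 reads) in the LTsc1KO library. The ratio was 1.4 (1.09 to 1.82) and its log2 ratio of 0.33 lay below the median gene. Its direction turned with the scaling, to -0.14 on the median-centred scale and to -0.24 after upper quartile scaling. Its relatives in the albumin gene cluster differed among themselves: Alb, the main plasma protein, was at 14351 and 5534 (log2 ratio -1.37), Afm, afamin, at 92.9 and 46.7 (-0.98) and Gc, the vitamin D-binding protein, at 2601 and 4486 (0.79). Alb was thus far above Afp in both libraries.

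Of 17 regulators of Afp 15 were expressed. Against 35.6% higher and 6.15% lower among all genes, 5 of the 15 were at least 2-fold higher in the LTsc1KO library and 2 lower (2 and 4 on the median-centred scale). Their median log2 ratio of 0.54 turned to -0.15 under that scaling. The repressors were at an FPKM of 5.15 and 9.61 for Zhx2 and of 117 and 62.5 for Zbtb20, and Zfhx3, which also restrains Afp, was at 1.98 and 1.75. Foxm1, a factor of dividing cells (0.197 and 7.52), Trp53, which encodes p53 (5.40 and 25.2), Nr5a2 (4.53 and 15.1) and Foxa1 (3.17 and 10.7) had high ratios among them, while Cebpb stood at 179 and 59.4. Genes linked to Zhx2 in mouse liver did not share a level of difference. Gpc3, Mup20 (34.6 and 426) and H19 (81.4 and 488) were at least 2-fold higher in the LTsc1KO library, whereas Afp, Lpl (54.8 and 83.0) and Elovl3 (1.46 and 0.593) were not.

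Golm1 (ENSMUSG00000021556; chromosome 13, 59634626 to 59675811, minus strand) had an FPKM of 0.405 (interval 0.291 to 0.550; 41 reads) in the wild type library and 48.2 (46.9 to 49.6; 5130 reads) in the LTsc1KO library, 119-fold higher (87.6 to 166). Its 3' end overlaps Naa35, a subunit of an N-terminal acetyltransferase, on the opposite strand: 1297 of its 4424 exon bases are shared. Strand was not stated in the sources used here, so reads from these bases could be counted for either gene. Naa35 was at 17.5 and 41.3 (log2 ratio 1.19), and its part in the Golm1 value was not tested. Other Golgi proteins did not show an excess of this size. Of 16 expressed Golgi genes, Golm1 included, 3 passed the 2-fold limit upwards and none downwards (1 and 2 on the median-centred scale), and their median of 0.59 turned to -0.10. After Golm1 the largest ratios were those of Tgoln1, a trans-Golgi membrane protein (17.6 and 55.0), Golph3, a Golgi membrane adaptor (14.8 and 33.9), and Golga5, a golgin (9.14 and 18.1). Furin, the protease that releases GP73, was at 52.3 and 80.0. Further along the chromosome Agtpbp1 was at 4.35 and 9.63, Ntrk2 at 1.88 and 0.504, and the testis-type genes on the other side were listed at 0.

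Mdk (ENSMUSG00000027239; chromosome 2, 91929805 to 91932297, minus strand) had 7 reads, an FPKM of 0.303 (interval 0.122 to 0.624), in the wild type library and 274 reads, 11.3 (9.98 to 12.7), in the LTsc1KO library. It was 37.2-fold higher, with a wide interval of 17.8 to 93.5 that comes from the 7 reads. Its only relative, pleiotrophin (Ptn), had 2 reads and 1 read. Of 17 receptors and binding partners named for midkine, 11 were expressed, of which 4 were at least 2-fold higher and 2 lower (1 and 3 on the median-centred scale); the median of 0.30 turned to -0.25. The integrin subunits Itga6 (1.99 and 39.9) and Itgb1 (35.6 and 116) had the highest ratios, followed on the low side by Itga4 (3.73 and 0.882) and the endocytic receptor Lrp1 (326 and 144). The receptor phosphatase Ptprz1 was listed at 0 in both libraries, and the kinase Alk was at 0 and 0.0140. Dgkz, a diacylglycerol kinase beside Mdk, was at 12.6 and 58.3 (log2 ratio 2.13), while Ambra1 and Harbi1 on the other side were at 0.82 and 0.65 on the log2 scale.

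Among the surface proteins, Gpc3 (ENSMUSG00000055653; chromosome X, 52272426 to 52613950, minus strand) rested on 17 reads in the wild type library and 1530 in the LTsc1KO library. The FPKM were 0.297 (interval 0.173 to 0.476) and 25.5 (24.2 to 26.8), 85.6-fold higher (53.3 to 147). Glypicans differed among themselves. Gpc4, the next gene on the chromosome, had a level that hardly differed, at 18.3 and 22.4 (log2 ratio 0.28, or -0.40 on the median-centred scale), Gpc1 was at 12.9 and 74.2, and Gpc2, Gpc5 and Gpc6 stayed below 1 in both libraries. Gpc3 therefore went from far below Gpc1 and Gpc4 to a level near that of Gpc4. On its other side Phf6 was at 1.86 and 8.51 and Hprt, a purine salvage enzyme, at 35.2 and 74.8.

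Of 16 glypican 3 partners and heparan sulfate enzymes 14 were expressed, 6 of them at least 2-fold higher in the LTsc1KO library and 1 lower. On the median-centred scale 13 were expressed, 3 of them higher and 2 lower. The median of 0.74 became 0.03 under that scaling and -0.13 after upper quartile scaling. Sulf2, a sulfatase that edits heparan sulfate chains (3.56 and 17.2), the tetraspanin Cd81, which binds glypican 3 (147 and 528), the peptidase Dpp4 (47.3 and 172) and the sulfotransferase Hs2st1 (3.32 and 12.0) led. Notum, an enzyme that cleaves glypicans and Wnt lipid, was lower at 16.4 and 4.44.

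Ly6d (ENSMUSG00000034634; chromosome 15, 74762056 to 74763620, minus strand) had an FPKM of 12.4 (interval 11 to 14; 258 reads) in the wild type library and 718 (707 to 729; 15673 reads) in the LTsc1KO library, 57.8-fold higher (51.1 to 65.6). It sits in a cluster of related genes, of which only the 3 nearest on each side were examined as neighbours. Lynx1 was at 7.47 and 9.85, and Lypd2, Slurp2, D730001G18Rik, Ly6k and Gml were below 1 in each library. In the family of 26 genes, 11 were expressed, with 3 at least 2-fold higher and 1 lower (3 and 2 on the median-centred scale), and a median of 0.31 that turned to -0.34. Besides Ly6d the higher genes were Ly6e (156 and 1655, 10.6-fold, interval 10.3 to 10.9), an interferon-inducible GPI-anchored protein, and Plaur, the urokinase receptor (0.513 and 4.15). Ly6c1, a marker of endothelial cells and monocytes, was lower at 6.99 and 1.92. Ly6d is also a B lymphocyte antigen, and 6 of 6 B lymphocyte markers lay below an FPKM of 1 in both libraries, with a sum of 2.09 and 1.25.

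Cd63 (ENSMUSG00000025351; chromosome 10, 128900989 to 128912822, plus strand) had 301 reads in the wild type library, an FPKM of 11.7 (interval 10.5 to 13.1), and 12135 reads in the LTsc1KO library, 450 (442 to 458), 38.3-fold higher (34.2 to 43.1). Of its 36-base transcript windows 14.7% also occur in other genes, most of them in the pseudogene Cd63-ps, which was at 0 and 0.0428. Many tetraspanins were higher along with it. Among 20 expressed tetraspanins, Cd63 included, 12 were at least 2-fold higher and 1 lower, with a median of 1.39 against 0.70 for all genes. On the median-centred scale 19 were expressed, 9 of them higher and 3 lower. Tspan13 (1.66 and 45.0), Tspan8, a tetraspanin of epithelial tumours (1.19 and 25.1), and Tspan15, which directs the protease ADAM10 (0.427 and 11), had the next largest ratios, and Tspan4 was lower at 91.6 and 42.8. By level, Cd81 at 528 was the one expressed tetraspanin above Cd63 in the LTsc1KO library; in the wild type library Cd81, at 147, stood far above the 11.7 of Cd63.

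Late endosomal partners of Cd63 were higher by a smaller and more even margin. Of 13 expressed members 9 passed the 2-fold limit upwards and none downwards, with a median of 1.38, but on the median-centred scale no member passed the limit in either direction. Itgb1 led (35.6 and 116), followed by syntenin (Sdcbp, 22.2 and 73.3), which loads Cd63 into exosomes, the secretory GTPase Rab27a (2.37 and 8.85) and the lysosomal membrane protein Scarb2 (17.3 and 50.8). Timp1, a protease inhibitor that binds Cd63 in human cells, was at 0.250 and 0.357. Genes beside Cd63 did not share its excess: Rdh5 was at 24.5 and 11.2, Itga7 at 6.10 and 2.32, Sarnp at 20.3 and 29.1 and Ormdl2 at 2.42 and 7.05. Cd63 is abundant in macrophages as well. Of 8 macrophage and Kupffer cell markers 6 were expressed, 1 higher and 1 lower (1 and 2 on the median-centred scale). Their summed FPKM was 32.6 and 80.2, in the LTsc1KO library mostly Cd68. Cd68, another late endosomal protein, was at 1.32 and 52.3. Adgre1 (0.416 and 0.749), Clec4f (13.5 and 11.7), Csf1r (1.94 and 4.59) and Marco (3.37 and 0.505) differed by less. So did Cd5l (9.41 and 6.10), Vsig4 (2.10 and 3.74) and Timd4 (0.577 and 0.502). Their part in the Cd63 value was not tested.

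**Figure D3:**
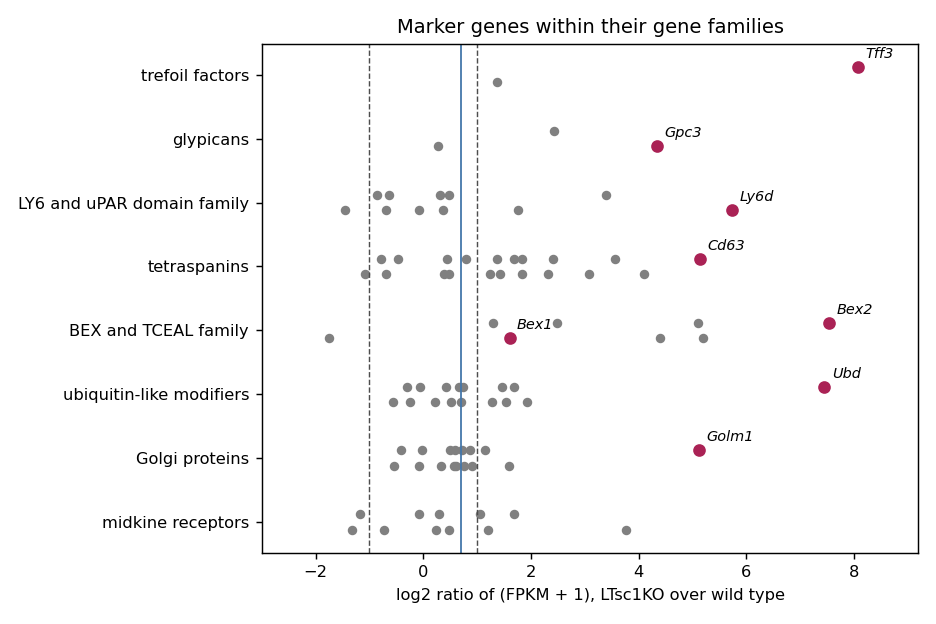
Log2 ratio of FPKM + 1 (LTsc1KO over wild type) for expressed members of 8 gene families or groups, 1 point per gene, with the marker genes in red, dashed lines at the 2-fold limits and a blue line at the median of all genes, 0.70. Tff3, Gpc3, Ly6d, Cd63, Bex2, Ubd and Golm1 each have the highest ratio of their row; Mdk has no row of its own, and its receptors are shown.

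Inside the cell, Ubd (ENSMUSG00000035186; chromosome 17, 37193892 to 37196095, plus strand) had 9 reads, an FPKM of 0.346 (interval 0.158 to 0.657), in the wild type library and 6422 reads, 235 (229 to 241), in the LTsc1KO library. The fold of 679 has an interval of 357 to 1485. Ubd lies among olfactory receptor genes, and all 6 flanking genes were listed at 0 in both libraries. No other ubiquitin-like modifier came near its ratio: of 16 expressed, Ubd included, 6 passed the 2-fold limit upwards and none downwards (3 and 1 on the median-centred scale), where the median of 0.68 became -0.02. Gabarapl1 and Atg12, both of autophagy, were at 80.3 and 308 and at 6.90 and 24.5, Urm1, a tRNA thiolation protein, at 9.99 and 31.0, and Isg15, the interferon-induced modifier, at 9.52 and 24.5.

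The enzymes that attach FAT10 were measured as well. Uba6, its activating enzyme, was at 0.427 and 3.03, and Ube2z, its conjugating enzyme, at 13.1 and 22.6. Of 11 expressed genes of FAT10 conjugation and binding 3 passed the limit upwards and none downwards (1 and none on the median-centred scale). Among all genes 35.6% and 6.15% passed it. The median of the 11 genes went from 0.64 to -0.06 on the median-centred scale. The largest ratio was that of Mad2l1, a spindle checkpoint protein that FAT10 binds (1.32 and 17.6). Ubd is induced by interferon-gamma and TNF with genes of antigen processing. Of these, 4 of 16 expressed passed the limit upwards and none downwards (2 and none on the median-centred scale), against 35.6% and 6.15% of all genes. Their median of 0.61, against 0.70 for all genes, became -0.05 on the median-centred scale. Their link to the Ubd value was not tested. Cxcl10, an interferon-induced chemokine (1.06 and 8.58), the peptide transporter Tap1 (7.99 and 28.3), the immunoproteasome subunit Psmb9 (16.5 and 55.4) and B2m (1685 and 4022) had the largest ratios, while Psmb10 was at 51.3 and 45.4 and Irf1 at 23.9 and 35.0.

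Bex2 (ENSMUSG00000042750; chromosome X, 136066564 to 136068236, minus strand) had 1 read in the wild type library, an FPKM of 0.0397 (interval 0.00100 to 0.221), and 5115 reads in the LTsc1KO library, 193 (188 to 198). The ratio of 4866 rests on that single read and its interval runs from 873 to 192215. Bex1 (ENSMUSG00000050071; chromosome X, 136213972 to 136215513, minus strand) had 25 reads, an FPKM of 1.27 (0.822 to 1.87), and 122 reads, 5.90 (4.90 to 7.04), which is 4.64-fold higher (3.0 to 7.45). The log2 ratio of Bex1 was 1.60, or 1.02 on the median-centred scale, and 0.89 after upper quartile scaling, where it no longer counted as 2-fold. The 2 genes therefore differed widely from each other in the LTsc1KO library, with Bex1 the higher in the wild type library and Bex2 in the other.

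Their relatives in the BEX and TCEAL family, transcription elongation-like and adaptor genes, lie on the X chromosome too, apart from Bex6. Of the 12 family members listed 8 were expressed, 7 of them at least 2-fold higher in the LTsc1KO library and 1 lower (6 and 1 on the median-centred scale). Their median of 3.44 became 2.73. Bex4 had 1 read and 910 reads (FPKM 0.0428 and 37.0), and Bex3, a death-signalling adaptor of the p75 neurotrophin receptor, 34 and 2076 (1.41 and 81.9). Tceal9 was at 10.7 and 247, Tceal8 at 18.6 and 108 and Tceal5 at 2.14 and 6.69. Tceal7 went the other way, with 47 reads and 0 (2.36 and 0), a ratio of 0 with an interval up to 0.0777. With a floor of 3 reads set for the LTsc1KO library, Tceal7 was 16.5-fold lower. It overlaps Bex1 on the opposite strand over 223 of 1186 exon bases. Bex6, Tceal1, Tceal3 and Tceal6 stayed below 1. Nxf3, between Bex2 and Bex4, was at 0 and 0.231, and Arxes1, Arxes2 and Gprasp2 beyond Bex2 were also below 1, so that the high values began at Bex2 and ran through Bex3 with Nxf3 and Tceal7 as gaps.

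Close sequence limits how firmly these genes can be told apart. Of the 36-base windows of the Bex1 transcripts 36.9% also occur in other genes, led by Bex4, as do 31.3% of those of Bex2, led by Bex3. For Bex4 the share was 57.4% and for Bex3 15.3%. How reads that match several genes were treated was not stated in the sources used here, and the values of these 4 genes are uncertain to that extent. In global alignments of the whole 300-base promoter windows, Bex1 and Bex4 were identical in 95.1% of columns and Bex2 and Bex3 in 71.3%, against 48.7% for Bex1 with Afp, a pair with no such kinship. Bex1 and Bex4, nearly identical before the start and with CACGTG at almost the same place, were at 5.90 and 37.0 in the LTsc1KO library. Bex genes are known from neurons and endocrine cells, and 8 of 8 neuroendocrine and neuronal markers were below an FPKM of 1 in both libraries, with sums of 0.433 and 1.19; Chga was listed at 0 in each.

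**Figure D4:**
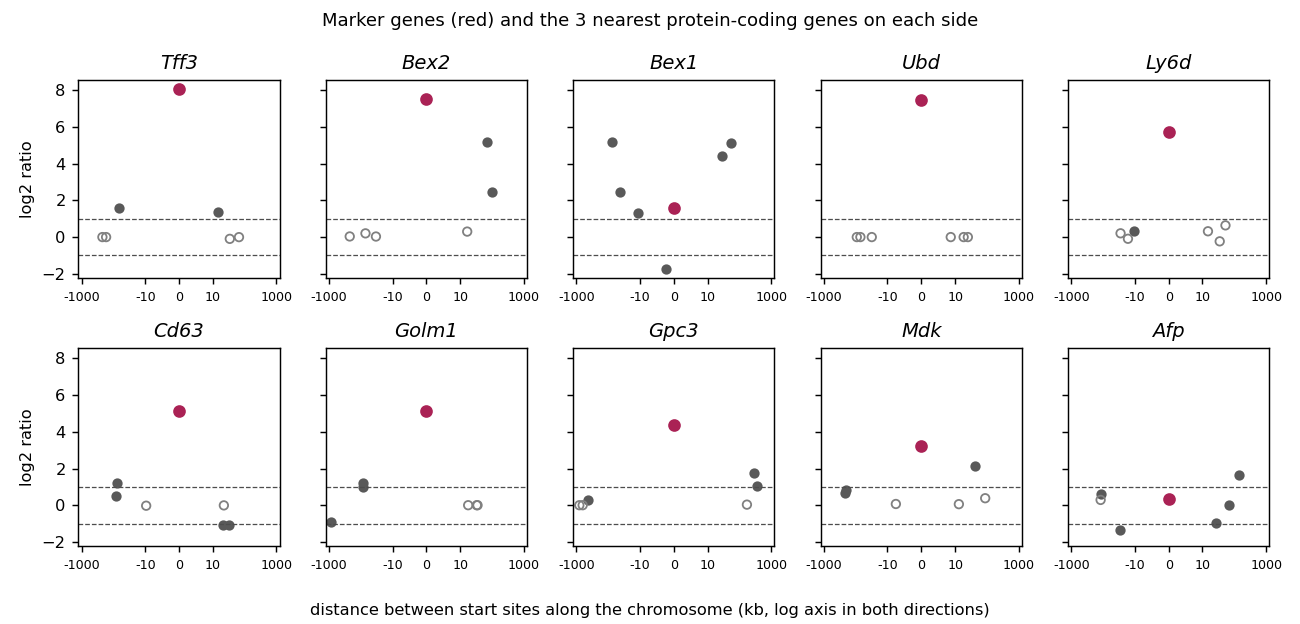
Log2 ratio of FPKM + 1 (LTsc1KO over wild type) of each marker gene (red) and of the 3 nearest protein-coding genes on each side, against the distance between start sites in kb (log axis in both directions); filled grey points are expressed and open points lie below an FPKM of 1 in both libraries. Bex4, Bex3 and Tceal9 stand at 5.19, 5.10 and 4.4 beside Bex1 and Bex2, whereas no expressed neighbour of the other 8 genes exceeds 2.13.

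Over all loci, 58 flanking genes that are not among the 10 were counted once each. Expressed were 27, 13 of them at least 2-fold higher in the LTsc1KO library and 4 lower, against 35.6% and 6.15% of all genes. On the median-centred scale 7 were higher and 6 lower, against 1848 and 1504 of all 11851 genes expressed on that scale. The 5 of them with a log2 ratio above 2 were Bex4, Bex3, Tceal9, Tceal8 and Dgkz. Ubd and Ly6d had no neighbour that was at least 2-fold higher.

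Other secreted products named as liver tumour markers were divided. Of 34 genes 31 had an entry and 20 were expressed, 9 of them at least 2-fold higher in the LTsc1KO library and 2 lower (5 and 4 on the median-centred scale), and the median was 0.71 against 0.70 for all genes. Spink1, a trypsin inhibitor, was at 1.87 and 122 (65.2-fold, interval 48.4 to 89.9), Spp1, osteopontin, at 36.9 and 575, and Lgals3bp, a galectin-binding glycoprotein, at 22.1 and 319. Orm1, orosomucoid, was lower at 9939 and 894. Dkk1, a Wnt inhibitor raised in the serum of human patients, and Serpinb3a were listed at 0 in both libraries. Surface proteins named as markers were likewise divided. Against 35.6% higher and 6.15% lower among all genes, 10 of 25 expressed surface genes were at least 2-fold higher and 2 lower. On the median-centred scale 22 were expressed, of which 8 were higher and 4 lower. The median of the 25 surface genes was 0.67 on the deposited scale. The hyaluronan receptor Cd44 (0.846 and 30.6), Itga6, Tspan8 and the exporter Abcc4 (0.312 and 14.5) led. The lower genes were Egfr (181 and 30.2) and Lgr5 (4.82 and 0.963, log2 ratio -1.57). Among progenitor markers, Epcam was at 0.316 and 2.34, Prom1 at 0.784 and 1.65, Cd24a at 2.92 and 4.51 and Dlk1, a fetal hepatoblast protein with 0 in the LTsc1KO library, at 0.0178 and 0.

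Cell type markers were set beside these values, and their part in them was not tested. Hepatocyte markers were high in both libraries, with 8 of 8 expressed and sums of 35306 and 24687; 2 of 8 were at least 2-fold lower, or 5 on the median-centred scale. Of 8 cholangiocyte markers 7 were expressed and 5 at least 2-fold higher, with sums of 48.4 and 638 that were mostly Spp1. On the median-centred scale 6 were expressed and 2 higher. The tight junction protein Cldn7 had the largest ratio, at 0.304 and 33.2 (log2 ratio 4.71, or 4.03 on the median-centred scale). The transcription factor Sox9 was at 3.64 and 11.2, the keratins Krt19 and Krt7 at 0.328 and 2.46 and at 0.372 and 1.10, and the chloride channel Cftr at 0.00792 and 0.136. Each of 8 skeletal muscle markers lay below the lower 2-fold limit, with sums of 3090 and 2.95. Acta1, the highest of them in the wild type library, was at 875 and 0.119. RNA of muscle genes was thus present in the only wild type library, which limits it as a liver reference. Its part in the other values was not tested. Pancreatic acinar markers other than Cela1 (7.5 and 14.5) were below 1 in both libraries, with Prss1, Ctrb1, Cel and Pnlip at 0.

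**Figure D5:**
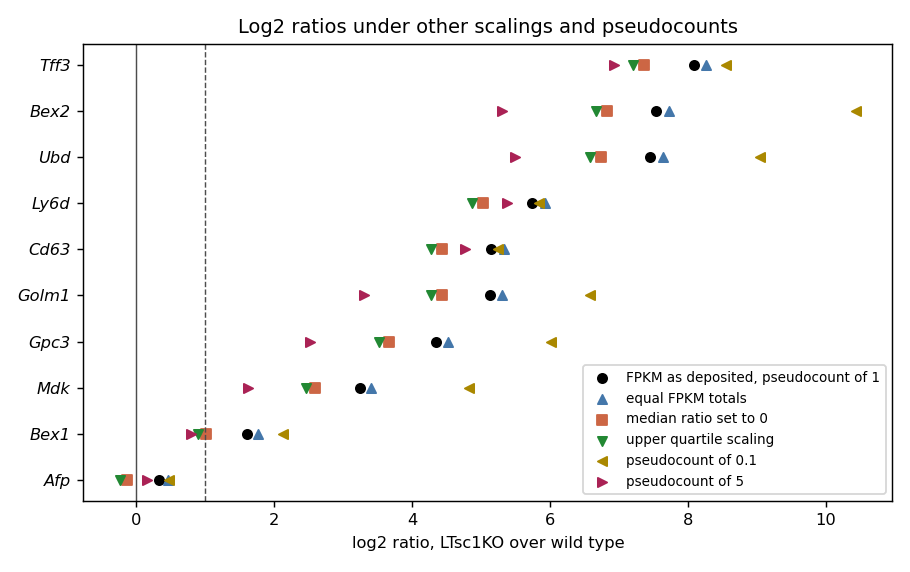
Log2 ratio (LTsc1KO over wild type) of each marker gene on the deposited scale with a pseudocount of 1 (black circles), after 3 other scalings and with pseudocounts of 0.1 and 5; the solid line marks 0 and the dashed line the 2-fold limit. Afp falls on both sides of 0 and Bex1 on both sides of the limit, while the other 8 genes stay beyond it in every setting shown.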

How the data were processed

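Liver RNA of 2 mice, 1 per genotype, was sequenced. Per the labels' protocols, RNA came from an RNeasy Plus Mini kit and library preparation was Illumina's usual one. The authors deposited FPKM in 1 column for each library, as their files state. CASAVA 1.7, Bowtie 0.12.2 and mm8 are named without roles, per the submitters' processing notes, and counting tool, annotation, strand and read length were not stated in the sources used here. Of 35275 gene IDs 34490 (97.8%) matched GENCODE M21 (GRCm38), the source of symbols and gene coordinates; values of 3 repeated symbols were summed.

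Reads were recovered from FPKM, which are whole multiples of 1 read's worth. At the rounded mean transcript length 9168 of 16964 genes with values above 0 in each library (54.0%) gave whole reads for both, within the rounding of the printed decimals. For the 10 marker genes whole reads were found for all: 7 at that length and 3 (Afp, Golm1, Cd63) at the nearest other whole length, here 2086, 3625 and 918 bases. A multiple of a length also gives whole reads, and in simulated data for this comparison (34490 genes, 300 of them tested) 93% of genes given another length got their true reads back. No count model was used.

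Ratios were log2((FPKM + 1)/(FPKM + 1)), with a minimum FPKM of 1 in at least 1 library and a 2-fold limit; ratio intervals were Clopper-Pearson and level intervals exact Poisson, both at 95%. In the same simulation both totals were exact, 100% of genes made 8-fold higher and 94% of those made 2.8-fold lower passed the limit, as did 8 of 10540 unchanged genes, which covers counting noise but no difference between animals. The altered genes were drawn from those at an FPKM of at least 5 in the wild type library. Of the 10 marker genes only Ly6d and Cd63 reached that level, so these shares do not cover the others. Flanking genes were the 3 nearest protein-coding genes on each side. From lists of 8 or fewer genes any member could be named, from others the 4 expressed genes with the largest absolute log2 ratio and the largest opposite one; further genes named (among them Zhx2, Zbtb20, Zfhx3, Furin, Timp1, Golga5, Uba6, Ube2z, Isg15, Urm1, Psmb10, Irf1, progenitor markers and genes at 0) were chosen for their role, with their values known. The 10 genes, 27 gene lists and motifs were chosen with earlier results of these data known. Promoters are RefSeq windows of GRCm38.p6; alignments were global. Some sequences were not used here. Alternatives were pseudocounts of 0.1 and 5, no filter, a minimum of 5, equal totals, median ratio 0, upper quartile scaling, a 4-fold limit and the highest row per repeated symbol. Software was scipy 1.17.1, numpy 2.4.6 and pandas 2.3.3 in Python 3.11.15, and figures used matplotlib 3.10.9.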

Additional observations from a re-analysis of the deposited data

How the results depend on the processing

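No paired analysis was possible because each genotype has 1 library, so no library could be left out either. Equal totals, median-centring and upper quartile scaling shift all log2 ratios by about 0.18, -0.72 and -0.88 before the pseudocount. The count of the 10 marker genes at least 2-fold higher stayed at 8 or 9 under all 9 alternatives. Without a filter no count could change, because a log2 ratio of 1 with a pseudocount of 1 already requires an FPKM of 1. Taking the highest row per repeated symbol left all 10 marker genes at the same values. The count of all genes at least 2-fold higher went from 4411 to 2225 with a pseudocount of 5, 1848 on the median-centred scale, 1514 after upper quartile scaling and 1098 at a 4-fold limit. The count of lower genes went from 762 to 459, 1504, 1766 and 283 in the same order. Afp reversed, to -0.14 on the median-centred scale and -0.24 after upper quartile scaling, as the construction of these scalings implies for a gene below the median. Of 60 member log2 ratios under alternatives, 33 stayed within the counting interval, 25 moved beyond it and 2 reversed. The 33 include the 10 unchanged values from the highest row per repeated symbol. Of list counts under alternatives, 38 of 171 (higher) and 45 of 171 (lower) moved by over 1.5 times. Depth limits Bex2, Mdk, Ubd and Gpc3 most, which had 1, 7, 9 and 17 reads in the wild type library.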

Other observations

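Other genes linked to mouse liver tumours were examined beside the marker genes; most of their products stay inside the cell, though Ggt1 (FPKM 0.371 and 12.3) encodes a surface enzyme. Of 25 expressed, 19 were at least 2-fold higher in the LTsc1KO library and 1 lower (16 and 1 on the median-centred scale). The median log2 ratio was 1.98 (1.42 on that scale) against 0.70 for all genes. Akr1b7, Akr1b8, Cbr3, Ggt1, Igf2bp3, Meg3, Rian, Scd2, Sox4, Top2a and Vil1 passed the filter through the LTsc1KO library alone. The list was also chosen with earlier results of these data known, so its counts and median are a description. Anxa2, a calcium-dependent membrane-binding protein, was at an FPKM of 4.68 and 182, its partner family member S100a11 at 11.6 and 343, Top2a, the topoisomerase of dividing cells, at 0.401 and 28.1, and the carbonyl reductase Cbr3 at 0.122 and 21.9. Cyp17a1, a steroid hydroxylase, was lower at 137 and 40.3. Oncofetal RNA-binding proteins differed from each other: Igf2bp3 was at 0.0165 and 5.0 and Igf2bp1 at 0.0158 and 0. Lin28b was at 0 and 0.259 and the imprinted Peg10 at 0.0502 and 0.947. Aldo-keto reductases Akr1b7 (0.280 and 5.51) and Akr1b8 (0.195 and 2.59), which are close relatives and can share reads, were both higher, while Pkm (32 and 30.0) and Hk2 (9.37 and 8.87) hardly differed on the deposited scale.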
